A study of Mus musculus with 80 samples.

Results

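The 6 Cyp4a genes Cyp4a10, Cyp4a14, Cyp4a31, Cyp4a32, Cyp4a12a and Cyp4a12b were followed through a fast in liver nuclei of female mice. They were taken by symbol from a table of raw read counts, which held all 6 among its 20105 genes. The study isolated nuclei carrying an affinity tag (INTACT) from 2 mouse lines: HEP-INTACT, in which hepatocyte nuclei are tagged, and MAC-INTACT, in which liver macrophage nuclei are tagged. Food was withdrawn at ZT12, the start of the dark, active phase, and nuclei were collected 3, 8, 16 and 24 h later, at ZT15, ZT20, ZT4 and ZT12, each time with ad libitum fed controls of the same line. Each of these 16 groups held 4 libraries of bead-bound nuclei, 64 in all. A further 16 libraries were made from nuclei of unpurified liver, each pooled from 4 mice, 1 for each line, feeding state and time. Every mouse was female and carried the INTACT tag. The sources used here do not name the promoter that drives the tag in either line, the strain or the ages. The question asked of these genes was how the fasting response differs by cell type once the daily rhythm is accounted for by fed controls.

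Cyp4a enzymes are microsomal cytochrome P450 monooxygenases that hydroxylate fatty acids at the terminal (omega) carbon. The hydroxylated acid is oxidised by alcohol and aldehyde dehydrogenases to a dicarboxylic acid, which is imported into peroxisomes and shortened there by beta-oxidation. In rodent liver, Cyp4a10 and Cyp4a14 are classical targets of PPAR-alpha, the nuclear receptor for fatty acids that flow to the liver in fasting. Cyp4a12a and Cyp4a12b are known as male-predominant genes of mouse liver that respond to androgen and growth hormone.

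All 6 genes lie in a 323 kb stretch of chromosome 4 (mm10, positions of the count table, counted from 1). Cyp4a12a (NM_177406) spans chr4:115299046-115332815 and Cyp4a12b (NM_172306) spans chr4:115411624-115439034, both on the plus strand. Cyp4a14 (NM_007822) spans chr4:115486200-115496141 on the minus strand. Cyp4a10 (NM_010011), Cyp4a31 (NM_001252539) and Cyp4a32 (NM_001100181) follow on the plus strand at chr4:115518287-115533649, chr4:115563649-115579015 and chr4:115600938-115622366. Counts were taken over these whole gene bodies, introns included: the length given equals the span from start to end for 100% of the genes. No gene of the table overlaps a member, and within 10 kb only Cyp4b1 lies near one, Cyp4a32.

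The 60 coding bases over the loop that binds the heme iron are shown for each member because they show which genes can exchange reads. They come from GENCODE vM21 transcripts, and capitals mark bases that differ from Cyp4a10.
Cyp4a10: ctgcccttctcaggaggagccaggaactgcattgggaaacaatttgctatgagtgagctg
Cyp4a31: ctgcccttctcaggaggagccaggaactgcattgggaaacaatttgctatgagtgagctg
Cyp4a32: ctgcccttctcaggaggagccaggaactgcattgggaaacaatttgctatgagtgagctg
Cyp4a14: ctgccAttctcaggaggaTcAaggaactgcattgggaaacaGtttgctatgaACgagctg
Cyp4a12a: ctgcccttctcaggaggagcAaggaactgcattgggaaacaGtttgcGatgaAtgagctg
Cyp4a12b: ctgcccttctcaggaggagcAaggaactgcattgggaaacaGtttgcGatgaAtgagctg

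Cyp4a10, Cyp4a31 and Cyp4a32 were identical over this stretch, Cyp4a14 differed from them at 6 bases, and Cyp4a12a and Cyp4a12b shared the same 4 differences. The same grouping held over the whole coding sequence. Cyp4a10 was 96.6% identical to Cyp4a31 and 97.2% to Cyp4a32, and Cyp4a12a was 98.5% identical to Cyp4a12b, while Cyp4a14 was at most 75.9% identical to any other member. Of the 50-base windows of the coding sequence, 50 bases being the length of 1 read end, 40.5% in Cyp4a10, 31.6% in Cyp4a31, 46.7% in Cyp4a32 and 54.8% in both Cyp4a12a and Cyp4a12b also occur in another member. In Cyp4a14 the count was 0 of 1472 windows. How reads divide within Cyp4a10, Cyp4a31 and Cyp4a32, and between Cyp4a12a and Cyp4a12b, is therefore uncertain. Introns were not compared, and the sources used here do not say how the authors treated reads with several matches. The RefSeq promoter table (GRCm38.p6) held 1 member, Cyp4a32. Its 250 bases before the start held no match on either strand to a DR1 element (AGGTCANAGGTCA), the kind of site PPAR-alpha binds with its partner RXR, nor to the looser AGGNCANAGGNCA, forms found in 0.0335% and 0.338% of the 32851 promoters of that length.

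Library totals were 12597786 to 30089561 counts in hepatocyte-tagged, 14968505 to 44694933 in macrophage-tagged and 13246494 to 35514304 in pooled libraries. Macrophage markers set macrophage-tagged libraries apart, while hepatocyte marker levels overlapped between hepatocyte-tagged libraries and pools. The summed level of 20 macrophage markers was 6258 to 10927 counts in every 1000000 of the library (CPM) in macrophage-tagged, 47.1 to 157 in hepatocyte-tagged and 454 to 637 in pooled libraries. The summed level of 24 hepatocyte markers was 17540 to 31391 CPM in hepatocyte-tagged libraries and still 7037 to 19188 CPM in macrophage-tagged libraries, with 0 of the 24 at a count of 0 in any group. In pools it was 20338 to 24448 CPM in the hepatocyte line and 22981 to 29900 CPM in the macrophage line. Of the 24 markers, 7 were called higher and 0 lower in hepatocyte-tagged libraries than in pools of the line, where 50.3% of genes were called. In these bulk samples, fewer cells of a type and less RNA per cell cannot be told apart. One library stood apart for the Cyp4a genes, the fed 16 h pool of the hepatocyte line. Its Cyp4a14 level was 464 CPM, against 11.5 to 79.1 CPM in the 4 tagged libraries of the same condition. Of the 23 fixed PPAR-alpha list genes that rose in hepatocytes at 16 h, 12 were higher in that pool than in all 4 tagged fed libraries, against 1 of 25, 3 of 28 and 0 of 14 in the fed 3, 8 and 24 h pools of the line.

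Cyp4a14 had the highest level per kilobase of gene body in fasted hepatocyte-tagged nuclei, and it rose at every time. At 3 h it stood at 2959, 1484, 2077 and 1241 CPM in the fasted libraries and at 81.0, 86.4, 101 and 44.9 CPM in the fed ones. At 8 h the fasted values were 1940, 3616, 2352 and 3522 CPM, against 62.7, 81.2, 101 and 120 CPM in fed libraries. The lowest fasted library was 12.3 times the highest fed one at 3 h and 16.2 times at 8 h. At 16 h Cyp4a14 was at 559, 1399, 1613 and 1489 CPM fasted and 32.2, 42.3, 11.5 and 79.1 CPM fed. At 24 h it was at 1922, 1616, 1843 and 1046 CPM fasted and 81.9, 113, 74.5 and 40.6 CPM fed. Fed and fasted libraries did not overlap at any of the 4 times. Of all genes tested in hepatocyte-tagged nuclei, every fasted library lay above every fed one in 10.9% at 3 h, 15.5% at 8 h, 8.01% at 16 h and 17.4% at 24 h. The log2 fold changes of Cyp4a14 were 4.84 ± 0.49, 5.02 ± 0.49, 4.87 ± 0.49 and 4.30 ± 0.48 (SE, n = 4 per group) at 3, 8, 16 and 24 h, with edgeR adjusted p of 2.84e-08, 1.69e-08, 7.59e-08 and 4.59e-07.

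**Figure D1:**
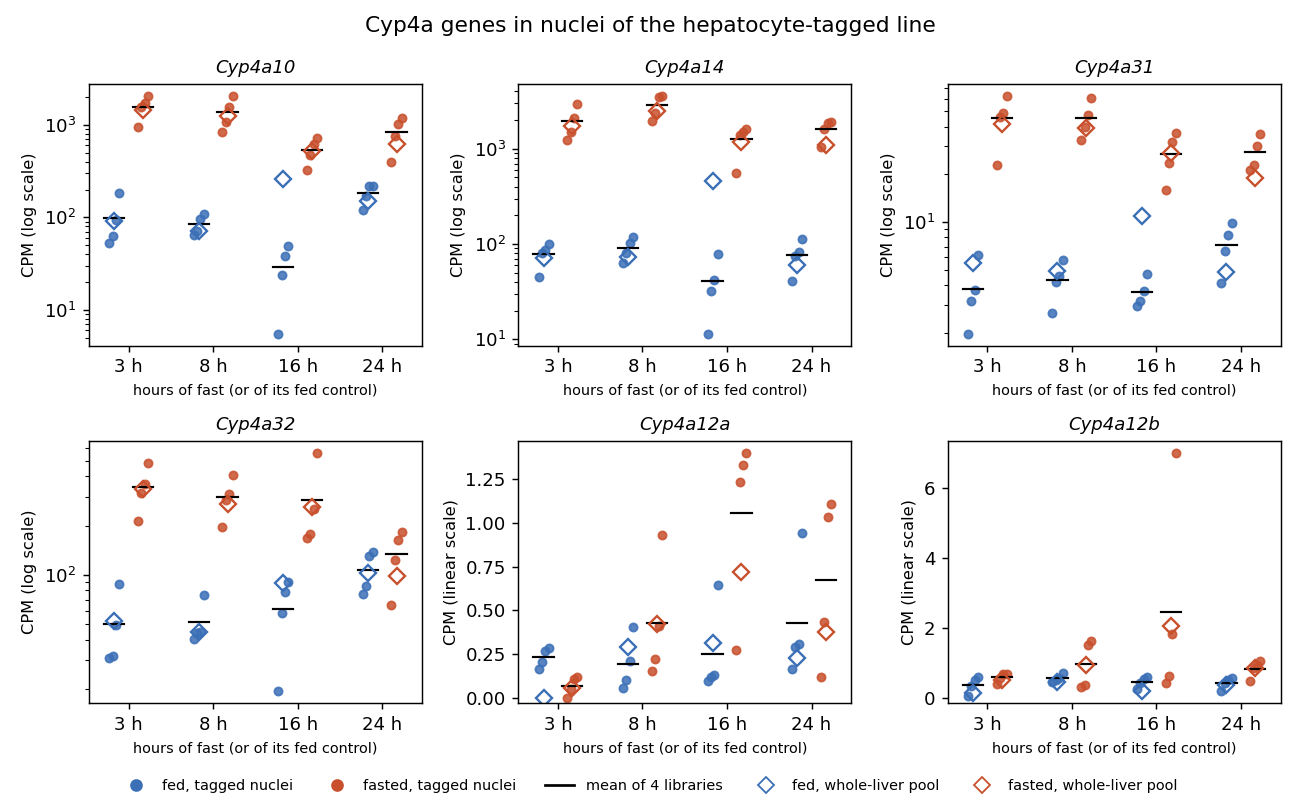
Level of each Cyp4a gene in every library of the hepatocyte-tagged line, in CPM (log scale for 4 genes, linear for Cyp4a12a and Cyp4a12b), by hours of fast. Dots are tagged libraries, bars their means (n = 4) and diamonds single whole-liver pools; the fed 16 h pool stands above its tagged libraries for Cyp4a10, Cyp4a14 and Cyp4a31, and fed and fasted dots of Cyp4a14 are apart at all 4 times.

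Cyp4a10, the other classical target, rose at every time, with its smallest change at 24 h. At 3 h the fasted libraries held 2084, 1726, 1581 and 945 CPM and the fed libraries 92.5, 53.2, 184 and 62.7 CPM. At 24 h the fasted libraries held 1020, 765, 1187 and 394 CPM, and the fed libraries had 172, 219, 217 and 120 CPM. The groups did not overlap at any time, but the lowest fasted library was 5.13 times the highest fed one at 3 h and only 1.80 times at 24 h. The log2 fold changes of Cyp4a10 were 4.20 ± 0.53, 4.08 ± 0.53, 4.14 ± 0.53 and 2.14 ± 0.48 (SE, n = 4 per group), with edgeR adjusted p of 7.06e-07, 9.19e-07, 3.83e-06 and 0.00199.

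Cyp4a31, a close relative of Cyp4a10, was far less abundant and also rose at every time. At 3 h it had 62.7, 48.4, 46.0 and 22.8 CPM in fasted and 3.74, 1.98, 6.24 and 3.17 CPM in fed libraries. At 24 h it had 30.1, 22.8, 35.6 and 21.2 CPM fasted and 6.57, 9.81, 8.32 and 4.11 CPM fed. Fed and fasted libraries did not overlap at any of the 4 times. Its log2 fold changes were 3.79 ± 0.37, 3.45 ± 0.37, 2.83 ± 0.36 and 1.86 ± 0.34 (SE, n = 4 per group), with edgeR adjusted p of 1.44e-08, 4.36e-08, 3.22e-06 and 2.59e-04.

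Cyp4a32 rose at 3, 8 and 16 h and did not pass the test at 24 h. At 3 h it was at 483, 358, 319 and 212 CPM fasted and 49.4, 30.7, 87.4 and 31.9 CPM fed, with no overlap. At 24 h it was at 182, 124, 164 and 64.8 CPM fasted and 76.2, 130, 138 and 85 CPM fed, and the groups overlapped. Its log2 fold changes were 2.97 ± 0.46, 2.59 ± 0.46, 2.15 ± 0.45 and 0.24 ± 0.43 (SE, n = 4 per group), with edgeR adjusted p of 1.21e-05, 6.00e-05, 0.00127 and 0.724. Over these 4 genes and 4 times, every fasted library lay above every fed one in 15 of 16 cases, beside the 8.01% to 17.4% of all genes given for Cyp4a14. With the reads of Cyp4a10, Cyp4a31 and Cyp4a32 summed into 1 gene, the log2 fold changes were 3.89 ± 0.48, 3.68 ± 0.47, 3.11 ± 0.46 and 1.68 ± 0.44 at 3, 8, 16 and 24 h, each past the threshold.

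By edgeR's quasi-likelihood test at an adjusted p of 0.05, members called numbered 4 of 6 at 3 h, 4 at 8 h, 6 at 16 h and 3 at 24 h, all of them higher in fasted libraries. Without replicate 3 of the fasted group, 4 were called at 16 h. The share of all 12942 genes tested that was called was 39.9% at 3 h, 38.7% at 8 h, 18.1% at 16 h and 24% at 24 h. The share called higher was 19.5%, 18%, 9.54% and 11.6%. Library numbers in the sample titles fell into 3 runs in the hepatocyte line, each holding samples of every group. With the run as a covariate the Cyp4a14 log2 fold changes were 4.87, 5.02, 4.88 and 4.28, and members called numbered as before.

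**Figure D2:**
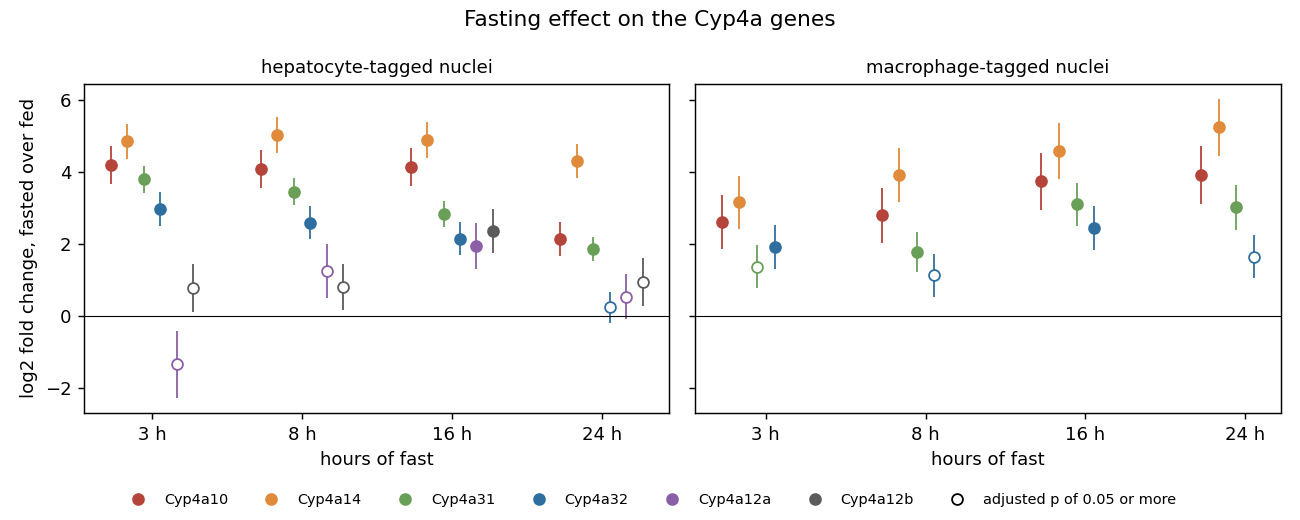
Log2 fold change of each Cyp4a gene, fasted over fed, by hours of fast in hepatocyte-tagged (left) and macrophage-tagged nuclei (right); bars are SE, n = 4 per group, and open points have an adjusted p of 0.05 or more. In hepatocytes Cyp4a14 stays between 4.30 and 5.02 while Cyp4a32 goes from 2.97 to 0.24; Cyp4a12a and Cyp4a12b were not tested in macrophage-tagged nuclei.

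The size of the fasting effect differed between times for Cyp4a10, Cyp4a31 and Cyp4a32. Their edgeR adjusted p for a difference among the 4 times were 0.0363, 0.0120 and 0.00526, where 32.8% of genes tested passed. With no filter on low counts, Cyp4a10 (edgeR adjusted p = 0.0628) no longer passed. For Cyp4a14 that p was 0.709 in the same edgeR test. The log2 fold change at 24 h was smaller than at 3 h by 2.06 ± 0.66 for Cyp4a10 (adjusted p = 0.0263), by 1.92 ± 0.48 for Cyp4a31 (adjusted p = 0.00515) and by 2.73 ± 0.62 for Cyp4a32 (adjusted p = 0.00238) in the edgeR fit, where 21.8% of genes were called. Against 8 h, Cyp4a31 and Cyp4a32 were smaller at 24 h by 1.59 ± 0.48 and 2.35 ± 0.62 (edgeR adjusted p = 0.0281 and 0.0113, 12.5% of genes called). For Cyp4a14 the fall from 3 to 24 h was 0.54 ± 0.59 (adjusted p = 0.545), an interval too wide to show that its effect was constant.

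Both arms of the comparison differed between the 4 times. Each length of fast was sampled at 1 clock time. Length of fast and time of day therefore cannot be told apart, either among fasted groups or in the fasting effect. Among fed hepatocyte-tagged groups, Cyp4a10 and Cyp4a31 differed by time (edgeR adjusted p = 8.70e-04 and 0.0323, where 30.1% of genes passed). With no filter on low counts, Cyp4a31 (edgeR adjusted p = 0.0513) no longer passed. Cyp4a32 (0.0524) and Cyp4a14 (0.137) did not pass. Mean fed Cyp4a10 was 98.1 ± 59.7, 85.2 ± 20.9, 29.1 ± 18.8 and 182 ± 46.9 CPM (SD, n = 4) at ZT15, ZT20, ZT4 and ZT12. It was thus lowest in the early light phase and highest at the end of the light phase, and rose by 2.78 ± 0.50 on the log2 scale from ZT4 to ZT12 (edgeR adjusted p = 3.00e-04, 13.8% of genes called). Mean fed Cyp4a32 was 49.9 ± 26.5, 51.1 ± 16.4, 61.5 ± 31.1 and 107 ± 31.2 CPM (SD, n = 4) at the same times, and was higher at ZT12 than at ZT15 by 1.2 ± 0.44 (edgeR adjusted p = 0.0413, 21.8% of genes called). Cyp4a31 was higher at ZT12 than at ZT15 by 1.08 ± 0.36 (edgeR adjusted p = 0.0299). Mean fed Cyp4a14 ran between 41.3 ± 28.3 and 91.3 ± 24.8 CPM, and 77.6 ± 29.9 CPM at ZT12.

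Among fasted hepatocyte-tagged groups, every member but Cyp4a14 (adjusted p = 0.0696) differed by time in the edgeR fit, where 44.9% of genes passed. With no filter on low counts, Cyp4a32 (edgeR adjusted p = 0.0722) no longer passed. The call of Cyp4a12b included replicate 3 of the fasted 16 h group, with 163 counts, and was not repeated without it. Cyp4a10 was lower after 16 h than after 3 h of fast by 1.82 ± 0.48 on the log2 scale (edgeR adjusted p = 0.00391, 35.9% of genes called), with means of 1584 ± 476 and 538 ± 174 CPM (SD, n = 4). Cyp4a32 was lower after 24 h than after 3 h by 1.49 ± 0.44 (edgeR adjusted p = 0.0246, 11.9% of genes called), with means of 343 ± 112 and 134 ± 51.8 CPM. At 24 h, then, the Cyp4a32 arms had moved towards each other: its fed mean was at its highest of the 4 times and its fasted mean at its lowest.

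Per kilobase of gene body, the order from high to low was Cyp4a14, Cyp4a10, Cyp4a32, Cyp4a31, Cyp4a12b and Cyp4a12a at 3 and 8 h in both feeding states. In fed libraries at 8 h, Cyp4a14 stood at 9.19 ± 2.5 CPM per kb, Cyp4a10 at 5.55 ± 1.36, Cyp4a32 at 2.39 ± 0.765 and Cyp4a31 at 0.279 ± 0.0816 (SD, n = 4). In fasted libraries at 8 h the values were 287 ± 84.4, 90.3 ± 35.6, 14.0 ± 4.13 and 2.94 ± 0.777 CPM per kb. Cyp4a12b was at 0.0352 ± 0.0262 and Cyp4a12a at 0.0127 ± 0.0104 CPM per kb there, neighbours whose SDs overlap. In the fed groups Cyp4a32 (2.87 ± 1.45) stood above Cyp4a10 (1.90 ± 1.22) at 16 h, and Cyp4a10 (11.8 ± 3.05) above Cyp4a14 (7.81 ± 3.01) at 24 h, each within overlapping SDs. Cyp4a14 supplied 30.5% to 52.5% of the family's summed level per kb in fed groups and 61.1% to 73.0% in fasted groups, as group means. Cyp4a32 supplied 13.5% to 32.5% in fed and 2.70% to 7.63% in fasted groups.

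The members thus changed unequally within the same libraries, which was tested on the log2 ratio of counts of each member to Cyp4a14. All 12 such ratios were lower in fasted than in fed libraries, and 9 of 12 passed an exact two-sided permutation test at an adjusted p of 0.05, adjusted over 16 tests. With 4 libraries against 4 the smallest possible exact p is 0.0286, which was reached in these 9. The 16 tests also held the ratio of Cyp4a12b to Cyp4a12a at each time. At 3 h that ratio, on few counts, was higher by 2.51 in fasted libraries and reached the smallest p too. The adjusted p of 0.0457 depends on all 10 of 16 tests at the smallest p, this one included. Cyp4a32 to Cyp4a14 fell at every time, by 1.75, 2.4, 2.87 and 4.17 on the log2 scale at 3, 8, 16 and 24 h (exact permutation test, adjusted p = 0.0457 each). At 24 h the mean ratio was 0.51 ± 0.56 in fed and -3.65 ± 0.27 in fasted libraries (SD, n = 4), with all 4 fasted libraries below all fed ones. Cyp4a31 to Cyp4a14 fell by 1.56, 2.30 and 2.46 at 8, 16 and 24 h, and Cyp4a10 to Cyp4a14 fell by 0.99 at 8 h and 2.29 at 24 h. At 3 h the Cyp4a10 ratio was at -0.48, with an exact permutation p of 0.314 before adjustment.

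**Figure D3:**
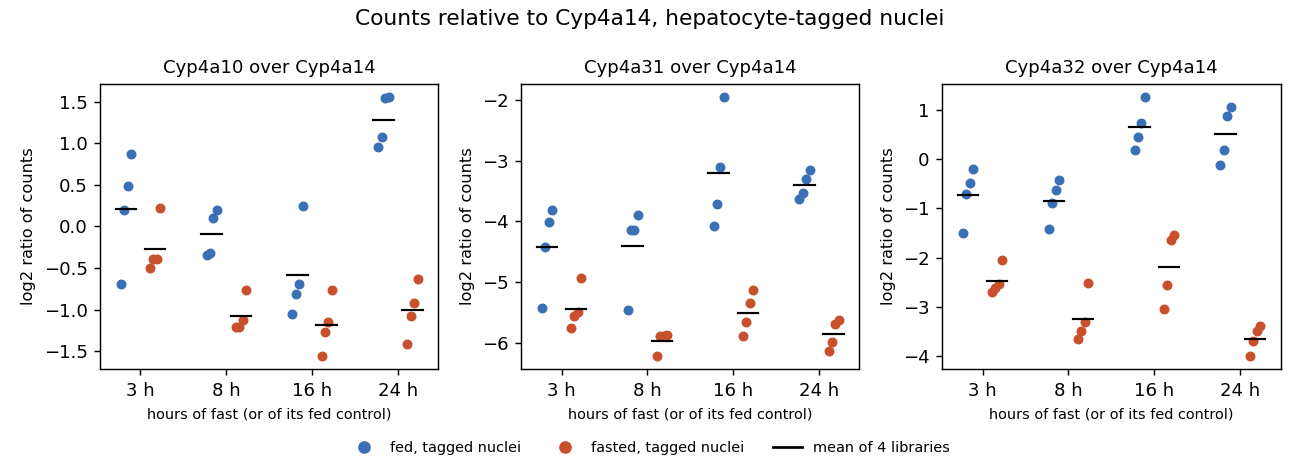
Log2 ratio of counts of Cyp4a10, Cyp4a31 and Cyp4a32 to Cyp4a14 in each hepatocyte-tagged library, by hours of fast; dots are libraries and bars are means of 4. Fasted libraries lie below fed ones for Cyp4a32 at all 4 times, and at 24 h for all 3 genes.

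Cyp4a12a and Cyp4a12b, the male-predominant pair, were close to the limit of detection in these female livers. Counts per hepatocyte-tagged library ran from 0 to 31 for Cyp4a12a and from 1 to 163 for Cyp4a12b. At 16 h Cyp4a12a had 1.40, 0.273, 1.33 and 1.23 CPM in fasted and 0.0961, 0.123, 0.134 and 0.643 CPM in fed libraries. The groups overlapped through 1 library on each side, and the log2 fold change was 1.94 ± 0.64 (SE, n = 4 per group, edgeR adjusted p = 0.0349). This call was lost when any of 6 of the 8 libraries was left out, with adjusted p up to 0.113. At 16 h Cyp4a12b had 0.640, 0.436, 7.0 and 1.83 CPM fasted and 0.433, 0.246, 0.605 and 0.552 CPM fed. Replicate 3 of the fasted group, with 163 counts, carried this difference: the log2 fold change was 2.37 ± 0.61 (edgeR adjusted p = 0.00732), and 1.08 (adjusted p = 0.208) without that library. At 3 h Cyp4a12a was at 0.119, 0.106, 0.0533 and 0 CPM fasted, the 0 allowing up to 0.210 CPM at that depth, and at 0.168, 0.288, 0.269 and 0.208 CPM fed. On counts of at most 8, the measured values of these groups did not overlap. The 0.210 CPM that the 0 allows lies above the fed values of 0.168 and 0.208 CPM. The share of all genes with every fasted library below every fed one was not computed. The log2 fold change of -1.33 ± 0.93 did not pass (edgeR adjusted p = 0.268). Among fasted libraries, Cyp4a12a was higher after 16 h than after 3 h by 3.44 ± 0.79 on the log2 scale (edgeR adjusted p = 0.00113), and its fasting effect was larger at 16 h than at 3 h by 3.27 ± 1.13 (edgeR adjusted p = 0.0318, 26.2% of genes called). The edgeR test of a difference among all 4 times did not pass for Cyp4a12a (adjusted p = 0.109). At 3, 8 and 24 h, neither gene was called. The reads of the pair summed gave 2.24 ± 0.52 at 16 h (edgeR adjusted p = 0.00314).

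Other genes of the omega-oxidation route were described from lists chosen with earlier results of these data known. Of 5 electron donors to P450 enzymes, 2, 1, 0 and 0 rose and 2, 2, 2 and 3 fell at 3, 8, 16 and 24 h. Of all genes tested, 39.9%, 38.7%, 18.1% and 24% were called at these times. Genes called higher made up 19.5%, 18%, 9.54% and 11.6% of all genes tested. Por, the reductase that passes electrons to every microsomal P450, rose by 2.79 ± 0.32 at 3 h (edgeR adjusted p = 1.86e-07) and was at 0.53 ± 0.30 at 24 h (adjusted p = 0.211). Cyb5b, a mitochondrial cytochrome b5, fell by 1.93 ± 0.16 at 3 h, and Cyb5r3, a cytochrome b5 reductase, fell by 1.06 ± 0.24. The median log2 fold change of the list was 0.55, 0.02, -0.27 and -0.86 at the 4 times, beside -0.03, -0.02, 0.01 and -0.01 over all genes tested.

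The dehydrogenases that act after the Cyp4a step moved both ways. Of 10, 3 rose and 5 fell at 3 h, with a median of -0.62 beside -0.03 over all genes tested. At that time 39.9% of all genes tested were called, and 19.5% of all genes tested were called higher. Aldh3a2, the fatty aldehyde dehydrogenase, rose by 0.77 ± 0.23, 1.71 ± 0.24 and 1.14 ± 0.23 at 3, 8 and 16 h (edgeR adjusted p = 0.00934, 2.32e-06 and 0.00104) and was at -0.15 ± 0.23 at 24 h. Adh4, an alcohol dehydrogenase, fell by 1.48 ± 0.39 at 3 h and 1.86 ± 0.39 at 8 h. Aldh3b1 fell by 2.12 ± 0.42 and Aldh1b1 by 1.57 ± 0.34 at 3 h.

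Among genes of peroxisomal import and beta-oxidation, which receive dicarboxylic acids, more rose than fell at each time. Of 30 tested, 16, 20, 12 and 6 rose and 2, 1, 0 and 3 fell at 3, 8, 16 and 24 h. The share of all genes tested that was called higher was 19.5%, 18%, 9.54% and 11.6%. The median log2 fold change was 0.77, 1.15, 0.48 and -0.01, beside -0.03, -0.02, 0.01 and -0.01 over all genes tested. Acot5, a peroxisomal thioesterase, rose by 4.6 ± 0.95 at 8 h, Ehhadh, the bifunctional enzyme needed for dicarboxylic acids, by 4.07 ± 0.38, and Pex11a, a peroxisome proliferation factor, by 3.22 ± 0.26. Ehhadh was at 0.36 ± 0.33 at 24 h (edgeR adjusted p = 0.469).

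Of 34 tested genes of the PPAR-alpha list, 25, 28, 23 and 14 rose and 1, 2, 1 and 3 fell at 3, 8, 16 and 24 h. Of all genes tested, 19.5%, 18%, 9.54% and 11.6% were called higher at these times. The median log2 fold change of the list was 1.14, 1.51, 0.97 and 0.46, beside -0.03, -0.02, 0.01 and -0.01 over all genes tested. The largest changes at 8 h were those of Cidec (5.40 ± 0.75), a lipid droplet protein, Txnip (5.17 ± 0.47) and Fgf21 (4.70 ± 0.51), a fasting hormone of the liver. Ppara itself rose by 1.18 ± 0.20 at 3 h and fell by 0.57 ± 0.20 at 24 h (edgeR adjusted p = 2.84e-05 and 0.0352). At 24 h Cpt1a was at 0.46 ± 0.22 and Vnn1 at -0.71 ± 0.53, neither past the test, whereas Fgf21 (3.09 ± 0.57) and Pdk4 (1.81 ± 0.52) rose.

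Other Cyp4 genes moved both ways. Of 8 tested, 4 rose and 1 fell at 8 h, with a median of 0.10 beside -0.02 over all genes tested. At that time 38.7% of all genes tested were called, and 18% of all genes tested were called higher. Cyp4f14, a hydroxylase of the related Cyp4f family, fell at all 4 times, by 2.03 ± 0.31, 3.10 ± 0.32, 1.99 ± 0.31 and 1.79 ± 0.31. Cyp4f39 rose by 2.12 ± 0.45 and Cyp4f17 by 1.33 ± 0.16 at 8 h, and Cyp4v3 fell by 1.2 ± 0.28 at 24 h. In the list of sex-dependent and growth hormone genes, in which Cyp4a12a and Cyp4a12b would belong, 12 of 25 fell and 4 rose at 8 h, and 13 fell and 0 rose at 24 h. Of all genes tested, 38.7% were called at 8 h and 24% at 24 h. Genes called higher made up 18% and 11.6% of all genes tested at these times. The list median was -0.74 at 8 h and -1.39 at 24 h, beside -0.02 and -0.01 over all genes tested. Hsd3b5 (-6.82 ± 1.13) and Hao2 (-4.58 ± 0.74) fell and Sult2a1 (3.12 ± 1.10) rose at 8 h.

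Across the 32 hepatocyte-tagged libraries, the genes whose log2 CPM followed Cyp4a14 most closely among 11183 compared, with the Cyp4a genes left out, were Ech1 (Pearson r = 0.954), Etfdh (0.951), Retsat (0.945), Hsdl2 (0.944) and Rtfdc1 (0.941). Ech1 encodes an enoyl-CoA isomerase and Etfdh the dehydrogenase that passes electrons of fatty acid oxidation to the respiratory chain. Among members, Cyp4a14 was at r = 0.951 with Cyp4a31, 0.946 with Cyp4a10 and 0.845 with Cyp4a32, and at 0.166 with Cyp4a12a. For Cyp4a12a the closest were Rif1 (0.680), Ubp1 (0.673), Thoc1 (0.655), Uimc1 (0.649) and Iars2 (0.647), on counts of 0 to 31. These libraries share the fed and fasted contrast, so the values describe likeness only.

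Tagged hepatocyte nuclei and unpurified liver were not called different in any Cyp4a gene. None of the 6 members was called between tagged libraries and pools of the hepatocyte line (edgeR, where 50.3% of genes were called). At an unadjusted p under 0.05, 0 of 6 passed too. The Cyp4a14 difference, tagged minus pools over the 8 conditions, was -0.31 ± 0.35 on the log2 scale, and 0.41 (adjusted p = 0.0803) without the fed 16 h libraries. In the pools themselves, Cyp4a14, Cyp4a10, Cyp4a31 and Cyp4a32 rose with fasting, by 3.90 ± 0.49, 2.86 ± 0.39, 2.20 ± 0.31 and 1.54 ± 0.34 as means over the 4 times and both lines (edgeR adjusted p = 2.27e-04, 3.82e-04, 4.31e-04 and 0.00634). That is 4 of 5 members tested, where 27% of genes were called and 12.1% were called higher. Cyp4a12b was at 0.90 ± 0.35 (adjusted p = 0.0737) and Cyp4a12a had too few counts. Without the fed 16 h pool of the hepatocyte line, the Cyp4a14 value was 4.39.

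In macrophage-tagged nuclei, Cyp4a14 and Cyp4a10 were called higher in fasted libraries at all 4 times. Group means of the 6 members were below those of hepatocyte-tagged nuclei in every condition except for Cyp4a32 in fed libraries at 8 h, at 107% of the hepatocyte-tagged mean. Cyp4a14 stood at 173, 45.0, 217 and 207 CPM after 3 h of fast and 21.6, 9.31, 28.3 and 22.8 CPM in the fed controls. At 8 h it was at 129, 299, 1970 and 804 CPM fasted and 31.6, 28.9, 89.1 and 80.3 CPM fed. The fasted libraries at 8 h spread widely, with replicate 3 above the rest. At 16 h Cyp4a14 was at 587, 776, 316 and 528 CPM fasted and 3.23, 44.6, 33.6 and 14.7 CPM fed. At 24 h it was at 514, 651, 764 and 513 CPM fasted and 14.0, 24.7, 23.6 and 4.40 CPM fed. Fed and fasted libraries did not overlap at any of the 4 times. Every fasted library lay above every fed one in 4.97%, 8.4%, 7.23% and 9.94% of all genes tested at 3, 8, 16 and 24 h. The log2 fold changes of Cyp4a14 were 3.15 ± 0.73, 3.90 ± 0.75, 4.57 ± 0.77 and 5.23 ± 0.80 (SE, n = 4 per group), with edgeR adjusted p of 0.00575, 0.00106, 3.25e-04 and 5.23e-05. The value at 8 h was 2.91 (edgeR adjusted p = 0.0112) without replicate 3 of the fasted group.

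Cyp4a10 was called at all 4 times in macrophage-tagged nuclei, with log2 fold changes of 2.61 ± 0.76, 2.79 ± 0.76, 3.73 ± 0.79 and 3.90 ± 0.80 (edgeR adjusted p = 0.0241, 0.0152, 0.00264 and 0.00126). At 3 h its fasted libraries held 120, 29.9, 287 and 204 CPM and its fed libraries 32.1, 19.8, 33.8 and 36.3 CPM, and replicate 2 of the fasted group lay within the fed range. The value at 3 h ran from 2.03 to 2.97 with 1 library left out, was 2.03 (edgeR adjusted p = 0.124) without replicate 3 of the fasted group, and passed in 8 of 16 alternatives. Cyp4a31 was at 1.38 ± 0.60 at 3 h (edgeR adjusted p = 0.124) and rose by 1.78 ± 0.56, 3.09 ± 0.60 and 3.01 ± 0.62 at 8, 16 and 24 h. Without replicate 3 of the fasted group at 8 h, neither Cyp4a10 (1.85, edgeR adjusted p = 0.139) nor Cyp4a31 (1.08, adjusted p = 0.286) passed there. Cyp4a32 rose by 1.93 ± 0.61 at 3 h and 2.44 ± 0.61 at 16 h, and was at 1.13 ± 0.59 at 8 h and 1.65 ± 0.60 at 24 h (adjusted p = 0.218 and 0.0748). Its value at 3 h passed in 6 of 15 alternatives and was 0.98 (edgeR adjusted p = 0.354) without replicate 3 of the fasted group. Cyp4a12a and Cyp4a12b did not pass the filter on low counts, with 0 to 11 and 0 to 17 counts per library. Of the 4 members tested, 3, 3, 4 and 3 were called, where 12.4%, 12.8%, 13.7% and 11.7% of genes were called at 3, 8, 16 and 24 h and 7.7%, 7.44%, 7.72% and 5.31% were called higher. For none of the 4 did the effect differ between times (edgeR adjusted p = 0.307 to 0.646, where 4.65% of genes passed), and 0 of 4 had an unadjusted p under 0.05.

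**Figure D4:**
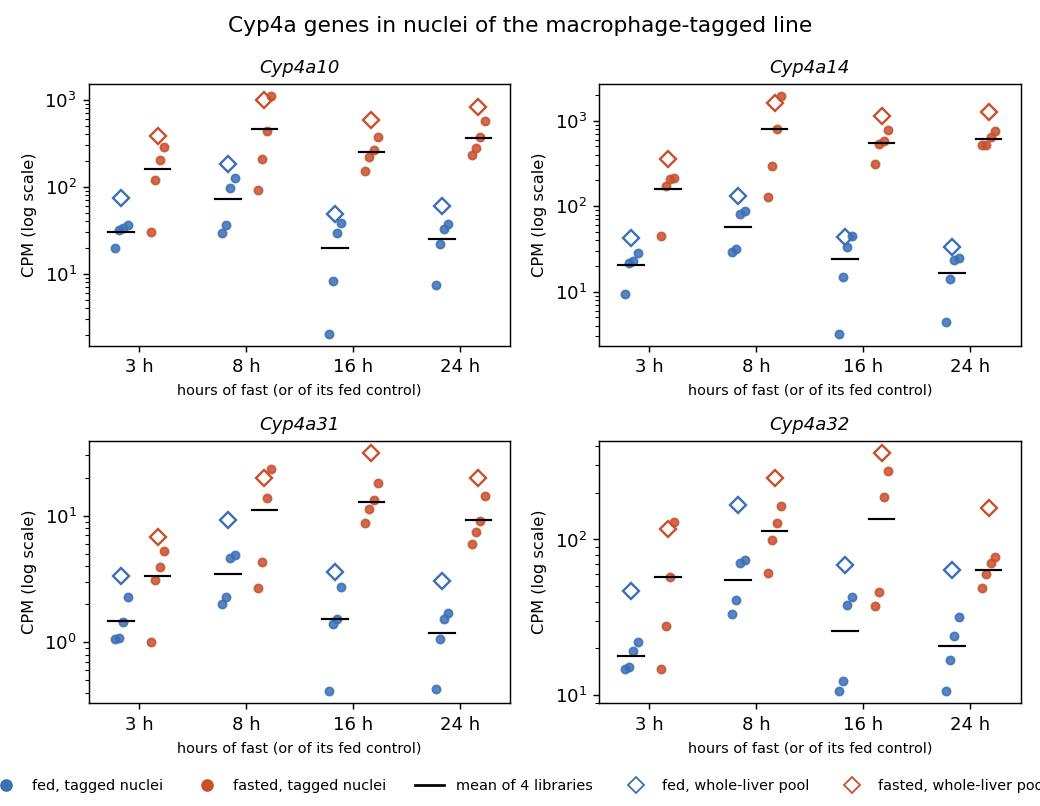
Level of the 4 abundant Cyp4a genes in every library of the macrophage-tagged line, in CPM on a log scale, by hours of fast; dots are tagged libraries, bars means of 4 and diamonds single whole-liver pools. Pools lie above the tagged means, and fed and fasted dots of Cyp4a14 are apart at all 4 times.

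Hepatocyte marker levels were set beside these values. In macrophage-tagged libraries, 5 of 5 members tested were lower than in pools of the same line (76.8% of genes were called, 40.7% lower): Cyp4a14 by 1.12 ± 0.31, Cyp4a10 by 1.32 ± 0.33, Cyp4a31 by 1.26 ± 0.26, Cyp4a32 by 1.44 ± 0.27 and Cyp4a12b by 1.09 ± 0.22 on the log2 scale. The hepatocyte markers were lower in 24 of 24 cases, with a median of -1.22, while the macrophage markers were higher in 20 of 20, with a median of 4.13. The summed hepatocyte marker level was also higher in fasted than in fed macrophage-tagged groups, with medians of 13569 and 10879 CPM at 3 h, 13207 and 9049 at 8 h, 12214 and 9876 at 16 h, and 14871 and 11570 at 24 h. Of the 24 markers, 3, 9, 2 and 4 rose and 2, 1, 0 and 0 fell at these times. Mean Cyp4a14 in macrophage-tagged groups was 8.27% of the hepatocyte-tagged level after 3 h of fast and 28.0%, 43.6% and 38.0% after 8, 16 and 24 h. The hepatocyte markers were at a median of 52.0%, 78.1%, 51.7% and 55.6% in the same groups. In fed groups Cyp4a14 was at 26.2%, 62.9%, 58.2% and 21.5% of the hepatocyte-tagged level at 3, 8, 16 and 24 h, and the markers at a median of 48.7%, 39.1%, 43.4% and 41.2%.

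With the hepatocyte marker level as a covariate, Cyp4a14 was called at all 4 times, at 2.87, 3.49, 4.39 and 4.91. Members called then numbered 1, 1, 4 and 3, since Cyp4a10 (adjusted p = 0.0775 and 0.0792 at 3 and 8 h) and Cyp4a32 at 3 h (0.132) and Cyp4a31 at 8 h (0.155) were no longer past the threshold in edgeR. Counts taken relative to the summed hepatocyte markers gave Cyp4a14 differences of 2.47, 2.73, 4.73 and 5.07, with all 4 fasted above all fed libraries at each time. The exact two-sided permutation p was 0.0286 each, the smallest possible, and 0.0571 adjusted over 16 tests, of which 0 passed and 8 reached the smallest unadjusted p. How much of the Cyp4a RNA in these libraries came from hepatocytes was not tested.

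**Figure D5:**
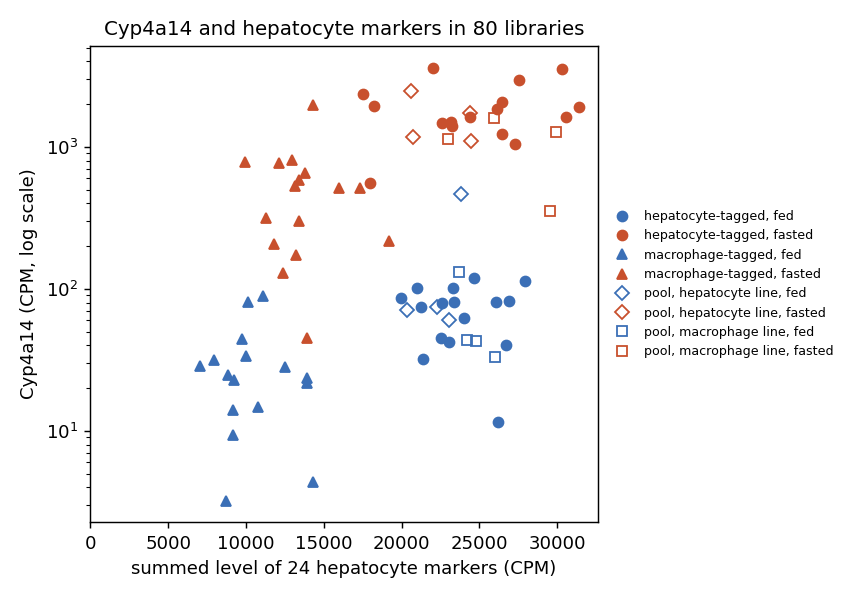
Cyp4a14 level (CPM, log scale) against the summed level of 24 hepatocyte markers (CPM) in all 80 libraries. Points are single libraries, blue fed and red fasted, filled for tagged nuclei and open for pools; macrophage-tagged libraries lie between 7037 and 19188 CPM of hepatocyte markers, and the fed 16 h pool of the hepatocyte line, at 464 CPM of Cyp4a14, lies above every other fed library.

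The fasting effect itself was compared between the tagged fractions with an interaction term. Of the 6 members, 1 differed at 3 h (10.6% of 14011 genes passed), and 0 at 8, 16 and 24 h (7.62%, 0.535% and 4.05%). At an unadjusted p under 0.05, edgeR gave 2, 1 and 1 members there. Cyp4a31 had a log2 fold change larger by 2.46 ± 0.70 in hepatocyte-tagged nuclei at 3 h (edgeR adjusted p = 0.0163). For Cyp4a14 the hepatocyte value exceeded the macrophage value by 1.73 ± 0.81, 1.22 ± 0.80 and 0.37 ± 0.80 at 3, 8 and 16 h and was below it by 0.94 at 24 h (-0.94 ± 0.81), with adjusted p of 0.164 to 0.944. The errors leave room for differences of over 1 on the log2 scale in either direction at 16 h. Each tagged fraction came from its own mouse line, so cell type and line cannot be told apart here. In the single unpurified pools at 3 h, fasted over fed Cyp4a31 was 7.49 in the hepatocyte line and 2.05 in the macrophage line. For Cyp4a14 these pool folds were 24.1 and 8.20 at 3 h, and 18.3 and 38.3 at 24 h.

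The authors' deposited table for hepatocytes listed all 6 members among 4745 genes. In that table Cyp4a14 had log2 fold changes of 4.85, 5.06, 4.88 and 4.31 at 3, 8, 16 and 24 h, and Cyp4a32 had 0.25 at 24 h (adjusted p = 0.918). In the authors' deposited table Cyp4a12a had 2.0 at 16 h (adjusted p = 0.0408) and Cyp4a12b 2.37 (adjusted p = 5.82e-04). The authors' deposited table for macrophages listed 0 of the 6 among its 3762 genes.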

How the data were processed

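Total nuclear RNA was sequenced from 64 libraries of tagged nuclei and 16 whole-liver pools of female mice, with a stranded kit and 50-base paired ends, per the labels' protocols. Reads were mapped with STAR 2.4.2a to mm10 and tested with DESeq2 1.24.0, per the submitters' processing notes. The counting tool and its strand setting do not appear in the labels. The deposited values used here were raw counts per gene over whole gene bodies, not normalized by the authors. The authors' deposited result tables hold log2 fold changes and adjusted p-values, used only where named.

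Here edgeR 4.0.16 (R 4.3.3) fitted its quasi-likelihood test with TMM scaling to the 8 tagged groups of a line, after a filter on low counts (filterByExpr, minimum 10). P-values were adjusted by the Benjamini-Hochberg method over all genes tested, with a threshold of 0.05. The SE of an edgeR log2 fold change is its absolute value divided by the square root of its F statistic, and so is approximate. Fractions, cell types and pools had fits of their own. Levels in CPM use library totals without TMM factors. Ratios of member counts, with 0.5 added, were compared by exact permutation. A count of 0 allows up to 3 counts. Floors cover counting error only. Coding and promoter sequences came from GENCODE vM21 and RefSeq and were compared with Python 3.11.15. The edgeR scripts were tested on simulated data.

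The members and gene lists were chosen with earlier results of these data known. Genes named are the 6 members, a set panel (1 gene of it is not reported here), up to 3 called genes of each list with the largest change at the time most of it was called, and the 5 genes most like Cyp4a14 and Cyp4a12a by Pearson r (mean of at least 1 CPM). Replicate numbers follow accession order. In the macrophage line they coincide with the runs of library numbers, so tagged libraries of the same replicate number share a run. In the hepatocyte line, replicates 3 and 4 each form a run of their own. What the runs mark is not stated. The labels do not say that the 4 libraries of a group came from separate mice, so p-values measure the spread between these libraries. No libraries of the same group were duplicates: the lowest chi-square per degree of freedom over 96 pairs within groups was 12.4. Pairs between groups were not compared. Alternatives were DESeq2 1.42.0, RLE scaling, no filter, the library number run or hepatocyte marker level as covariate, fits to 8 libraries, and leaving out each library. Leaving out the fed 16 h libraries or pool was chosen after seeing the data.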

Additional observations from a re-analysis of the deposited data

Results flagged for a closer look

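In 4 of 96 sets of 4 libraries (6 genes in 16 groups), 1 library stood far from the other 3, where chance gives about 1 in 20 sets. Cyp4a32 was at 75.6 CPM in replicate 3 of the fed 8 h hepatocyte-tagged group and at 40.5 to 44.7 CPM in the others. Cyp4a12a was at 0.273 CPM in replicate 2 of the fasted 16 h hepatocyte-tagged group against 1.23 to 1.40 CPM, and at 0.643 CPM in replicate 4 of the fed 16 h group against 0.0961 to 0.134 CPM. In macrophage-tagged nuclei Cyp4a12a was at 0.427 CPM in replicate 3 of the fed 3 h group against 0.0970 to 0.131 CPM.

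Some fasting effects differed between groups by edgeR's test of the difference. In hepatocyte-tagged nuclei the log2 effect at 24 h minus that at 3 h was -2.06 for Cyp4a10, -1.92 for Cyp4a31 and -2.73 for Cyp4a32. At 24 h minus 8 h it was -1.59 for Cyp4a31 and -2.35 for Cyp4a32. For Cyp4a12a the effect at 16 h minus that at 3 h was 3.27, on few counts, while the test over all 4 times did not pass (edgeR adjusted p = 0.109). Between the tagged fractions, which came from different mouse lines, the Cyp4a31 effect at 3 h was larger by 2.46 in hepatocyte-tagged than in macrophage-tagged nuclei.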

How the results depend on the processing

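No result changed direction past the threshold. Of the member fold changes under the alternatives, 325 of 334 in hepatocyte-tagged and 212 of 254 in macrophage-tagged nuclei kept their side of the threshold. A change of direction was not counted where neither value passed. Of the ratio values, 144 of 144 were labelled unchanged. With 1 library left out, this meant a shift smaller than the pooled SD of the fed and fasted groups, and no p was compared. With 1 added to each count, it meant the same side of the threshold. Fitted to the 8 libraries of 1 time alone, genes called fell to 885 for hepatocytes at 16 h (2342 in the fit to all 8 groups), and to 247 at 3 h (1716) and 989 at 16 h (1901) for macrophages, with 1 member called at 3 h (3). With the hepatocyte marker covariate, macrophage-tagged members called were 1 at 3 h and 1 at 8 h (3 each) and genes called at 8 h were 1117 (1781). With no filter on low counts, members differing by time in fed hepatocytes were 1 (2). Leaving out 1 library at a time gave 1485 (without fasted replicate 3) to 2540 genes for hepatocytes at 16 h. For macrophages it gave 702 (without fasted replicate 3) to 2720 genes (without fasted replicate 2) and 1 to 4 members at 3 h, 702 (without fasted replicate 3) to 1741 genes and 1 to 3 members at 8 h, and 922 (without fasted replicate 1) to 2270 genes at 16 h. Beyond the smaller fits, the cause was not tested. The labels carry no replicate numbers shared between groups. With the run of library numbers as a block, 1 member call changed, that of Cyp4a32 at 3 h in macrophage-tagged nuclei (1.81, edgeR adjusted p = 0.0546). Depth limits Cyp4a12a and Cyp4a12b, whose counts per library reached 0.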
